A study of Mus musculus with 2 samples.

Results

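The genes described here are 10 genes through which macrophages recognise dying cells and antibody-coated particles: the receptor tyrosine kinases Axl and Mertk, the bridging proteins Gas6 and Mfge8, the Fc gamma receptors Fcgr1, Fcgr3, Fcgr4 and Fcgr2b, the signaling chain Fcer1g and the lipid receptor Trem2. They were chosen by name, with earlier results of these data known. All 10 were found among the 32285 genes of both count tables by matching each symbol to its Ensembl identifier. They were followed in alveolar macrophages (AMs) of C57BL/6 mice at postnatal week 10, in 1 library from control animals (Control-AM) and 1 library from animals bearing an orthotopic lung tumor (Tumor-AM). The tumor was made by injecting the mouse Lewis lung carcinoma line LLC with Matrigel into the left lung, and the control animals received vehicle. Per the study's methods, lungs of female mice were digested with collagenase and dispase, and cells were blocked with an antibody against CD16 and CD32, the proteins encoded by Fcgr3 and Fcgr2b, before sorting. The number of animals behind each library is not given in the sources used here. With 1 library per condition the tumor, the library and the animals cannot be told apart, no test between conditions was possible, and every interval below is a 95% interval that covers counting error only.

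Barcodes with at least 500 detected genes and at most 10% of unique molecular identifiers (UMIs, each standing for 1 captured transcript) from mitochondrial genes were kept. That left 6185 control and 7666 tumor barcodes with 64850143 and 68801889 UMIs, and a median of 10370 and 8264 UMIs per cell. Of the kept barcodes, 17 sequences occurred in both libraries. All 15 markers of AMs were seen in each library, at a summed level of 22129 counts per 1000000 UMIs (CPM) in control and 19503 in tumor. The 11 interstitial macrophage markers summed to 23.8 CPM in control and 109 CPM in tumor, with Folr2 and Cd163 at 0 in control, and the 11 monocyte markers to 611 and 1410 CPM, all seen in both. Fn1 alone made up 359 and 918 CPM of the monocyte sum. Treml4, on the same list, went the other way, from 34.6 to 20.3 CPM. The mesenchymal list went from 5.52 to 39.7 CPM, the T cell list from 5.21 to 18.4 CPM and the epithelial list from 134 to 45.6 CPM. The 12 interferon-response genes summed to 98.1 and 339 CPM. The part of these shifts in the results below was not tested beyond the comparisons within clusters.

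Efferocytosis is the uptake of dying cells. Gas6 binds phosphatidylserine on the dying cell and bridges it to Axl and Mertk, while Mfge8 binds phosphatidylserine and bridges it to integrins. Fc gamma receptors bind the constant part of IgG: Fcgr1, Fcgr3 and Fcgr4 signal through the tyrosine-based activation motif of the shared chain Fcer1g, and Fcgr2b carries an inhibitory motif. Trem2 binds lipids and lipoproteins and signals through Tyrobp. AMs live on the surface of the air spaces, where they clear cell debris and surfactant.

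The level of the 10 genes covered a wide range. On the CPM scale of 3′ UMIs, which counts molecules and is not divided by gene length, Fcer1g led with 2105 CPM in control and 1824 CPM in tumor. Axl followed at 494 and 543 CPM, then Mertk at 280 and 325 CPM and Fcgr3 at 235 and 261 CPM. Trem2 stood at 158 CPM in control and 258 CPM in tumor, close to Fcgr3 in tumor, and Fcgr2b at 106 and 159 CPM. Fcgr4, at 79.0 and 110 CPM, and Mfge8, at 65.1 and 104 CPM, were neighbours in both libraries. Fcgr1 was the lowest Fc receptor at 28.4 and 42.8 CPM. Gas6 was close to absent, with 21 UMIs in the whole control library and 46 in the whole tumor library (0.324 and 0.669 CPM). The libraries thus held abundant transcript of both Gas6 receptors and almost none of Gas6 itself.

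Between the libraries, 4 of the 10 genes were at least 1.5-fold higher in tumor and none was 1.5-fold lower. Over all 12267 genes with at least 50 UMIs, 8.44% were at least 1.5-fold higher and 11.0% at least 1.5-fold lower. The 4 were Trem2 (log2 ratio 0.71, interval 0.67 to 0.74), Mfge8 (0.68, 0.62 to 0.73), Fcgr1 (0.59, 0.51 to 0.68) and Gas6 (1.05, 0.27 to 1.86). The call for Gas6 rests on the 21 and 46 UMIs given above. Fcgr1 and Fcgr2b sat on either side of the threshold, at 1.51-fold and 1.498-fold, and Fcgr2b had almost the same log2 ratio as Fcgr1 (0.58, 0.54 to 0.63). With the mean of per-cell CPM, Gas6 (0.50) and Fcgr1 (0.48) were under 1.5-fold and Fcgr2b (0.60) was past it, and without mt- and ribosomal genes Fcgr1 (0.55) was under it. Fcgr4 was higher by 0.47 (0.42 to 0.52). Mertk, Fcgr3 and Axl differed little, with log2 ratios of 0.21, 0.15 and 0.14. Fcer1g was the only one of the 10 that was lower in tumor, with a log2 ratio of -0.21 (-0.22 to -0.20). The median log2 ratio of the 10 was 0.53, against -0.06 over the 12267 genes. Because the 10 were chosen with earlier results of these data known, these comparisons with all genes are description only.

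**Figure D1:**
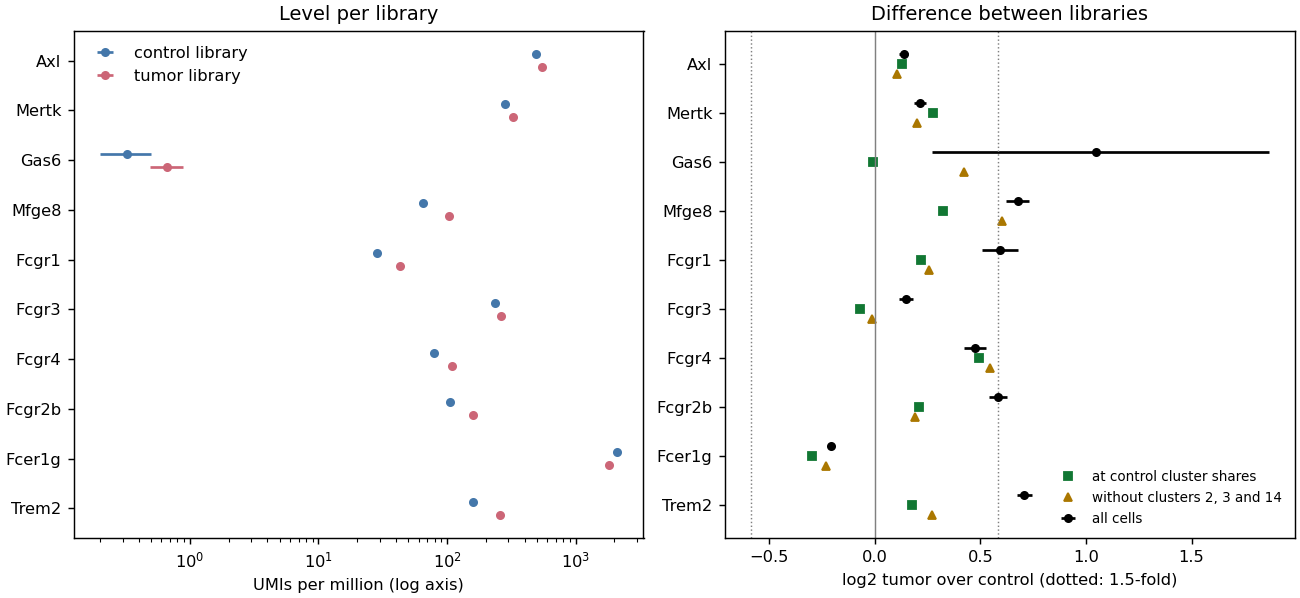
Left, level of each gene in CPM on a log axis, in the control (blue) and tumor (red) library, with exact Poisson intervals. Right, log2 ratio of tumor over control for all cells (black, with interval), with the tumor clusters reweighted to the control library's shares (green) and without the clusters 2, 3 and 14 (ochre). Trem2, Fcgr1 and Fcgr2b move from 0.71, 0.59 and 0.58 to 0.18, 0.22 and 0.21 after reweighting, whereas Fcgr4 stays near 0.49.

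The same order held in the share of cells with a transcript. Each cell was thinned to 3800 UMIs so that depth was equal, which left 5590 control and 6937 tumor cells and dropped 595 and 729 shallower ones. Fcer1g was then detected in 99.5% of control and 98.5% of tumor cells, and Axl in 83.4% and 85.9%. Mertk was detected in 63.6% and 68.2% of cells, and Fcgr3 in 55.1% and 59.1%. The largest differences in share were in Trem2, from 39.6% to 51.8% (difference 12.3 percentage points, interval 10.5 to 14.01), and Fcgr2b, from 30.4% to 40.9% (10.5 points, 8.82 to 12.2). Fcgr4 went from 25.0% to 31.5%, Fcgr1 from 9.18% to 13.7% and Mfge8 from 11.7% to 15.4%. Gas6 was seen in 0.197% and 0.187% of cells. Without thinning, Trem2 was detected in 63.3% and 69.8% of cells and Fcgr2b in 53.1% and 60.6%. The direction turned without thinning for Axl, at 95.1% and 94.3%, for Fcgr3, at 78.9% and 78.0%, and for Gas6, at 0.340% and 0.548%.

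Barcodes of non-myeloid cells (B, T, NK, epithelial, endothelial or mesenchymal) served as background for free RNA. There were 13 such barcodes in control and 23 in tumor, with a median of 4080 and 10399 UMIs, against 10370 and 8264 UMIs over all cells. After thinning, 17 tumor barcodes of this kind remained, and Fcgr1, Fcgr2b, Fcgr3 and Mertk were each seen in 0 of the 17, which allows a share of up to 17.6%. Trem2, Axl, Fcgr4 and Fcer1g were each seen in 1 of the 17 (5.88%). Only 7 such barcodes remained in control, where Mertk, Mfge8 and Fcer1g were each seen in 1, Gas6 in 2 and the other genes in 0, which allows a share of up to 42.9%. The clusters of other cell types gave levels by gene. In control, cluster 18 (10 control cells, led by Dcn and Col3a1) held 154 CPM of Fcgr3, 103 CPM of Trem2, 68.6 CPM of Fcgr2b, 51.5 CPM of Fcgr4, 1269 CPM of Fcer1g and 154 CPM of Mfge8. In tumor (19 cells) it held 27.6 CPM of Fcgr3, 24.5 CPM of Trem2 and 156 CPM of Fcer1g, with no UMI of Fcgr2b. In cluster 19, a group of 20 cells led by Igkc and Ighm, Fcer1g stood at 1781 CPM in control and 1347 CPM in tumor, Axl at 163 and 198 CPM, and Fcgr1 at 40.8 CPM in control, from 3 UMIs. The source of these UMIs was not tested. At a bound of 17.6%, the background in tumor does not separate the thinned share of Fcgr1 (13.7%) from free RNA by itself. In control, the bound of 42.9% does not separate the thinned shares of Trem2 (39.6%), Fcgr2b (30.4%), Fcgr4 (25.0%) and Fcgr1 (9.18%). The control side of their differences in share is thus not shown to be above background. No Fcgr1 UMI was found among 328009 UMIs of the tumor non-myeloid barcodes, with an exact Poisson upper bound of 11.2 CPM beside 42.8 CPM in the library. None was found among 49246 UMIs of the control ones either. There the upper bound of 74.9 CPM lay above the library's 28.4 CPM, so it separates nothing in control. Mfge8 behaved otherwise and was seen in 6 of the 17 barcodes (35.3%), at 104 CPM over all 23, the level of the whole tumor library. Its share over all thinned tumor cells was 15.4%. In control it was seen in 1 of the 7 barcodes (14.3%), beside 11.7% of all thinned cells. The difference in its share is thus not shown to be above background in either library.

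To ask how the genes depended on the state of the cell, cells of both libraries were clustered together from 2000 variable genes, with the 10 genes and all genes of the related pathway lists left out. Clusters are given by number and leading genes, with no cell type name. There were 17 clusters of at least 50 cells, and 3 of them held at least 90% tumor cells at equal weight of the libraries. Cluster 2 was led by Apoe, Hpse and C1qb (53 control and 1532 tumor cells), cluster 3 by Il6, Vps37b and F13a1 (89 and 1415 cells), and cluster 14 by the interferon-stimulated genes Ifit1bl1, Ifit3 and Ifit1 (17 and 253 cells). Cluster 14 is thus described in control from 17 cells only and is left out of the control ranges below.

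Axl and Mertk, the Gas6 receptors, were present in every one of these clusters. Axl was the most even of the 10 apart from Fcer1g in control: its highest cluster was 1.97-fold above its lowest in control and 1.83-fold in tumor. It ranged from 347 CPM in cluster 17 (led by the mitotic genes Cenpf and Cdc20) to 684 CPM in cluster 7 in control, and from 344 CPM in cluster 17 to 629 CPM in cluster 3 in tumor. Mertk was highest in cluster 7 in both libraries, at 530 CPM in control and 771 CPM in tumor. Cluster 7 was led by nuclear RNAs such as Neat1 and was of low depth, with a median of 2803 UMIs and 6.50% mitochondrial UMIs. Cluster 12, with a median of 2248 UMIs, held 184 CPM of Mertk in control and 312 CPM in tumor. The part of depth in these levels was not tested. The lowest Mertk levels were 170 CPM in cluster 15 (histone genes and Top2a) in control and 203 CPM in cluster 9 (Cxcl9, Pla2g7 and Slc11a1) in tumor. Both receptors were thus low in the cells with mitotic genes in both libraries: in cluster 15, Axl stood at 358 and 383 CPM and Mertk at 170 and 225 CPM.

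Within tumor, cluster 3 had more of both receptors than cluster 2. Axl was 629 against 500 CPM (1.26-fold), and Mertk was 399 against 283 CPM (1.41-fold). Over the 33 combinations of cluster and library with at least 50 cells, the log2 levels of Axl and Mertk had a Pearson r of 0.74 as a description, with points that share libraries and depth. After thinning, 2981 control cells had both, against 2963 that independent detection gives, and 4117 tumor cells, against 4060. The count could have risen to the 3554 control and 4729 tumor cells with Mertk. It lay near the expected count, at 1.01 times in both libraries, and the difference was not tested.

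Mfge8 differed most among the states. In control it ranged from 12.3 CPM in cluster 16 to 214 CPM in cluster 5, a 17.4-fold range, and in tumor from 20.5 CPM in cluster 1 to 261 CPM in cluster 9, a 12.7-fold range. Cluster 5 was led by Mmp12, Fstl1 and Mfge8 itself, and Inhba was among its 10 leading genes. Its Mfge8 level was the same in both libraries within counting error, at 214 and 208 CPM. Cluster 1 had the lipid genes Acaa1b, Abca1 and Fabp1 among its leading genes. Its summed list of 7 lipid genes was only 0.06 above all cells on the log2 scale. It had little Mfge8 in either library, at 17.0 and 20.5 CPM. Cluster 13, led by the MHC class II gene H2-Aa, was as low, at 15.2 and 26.7 CPM.

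The clusters that were mostly tumor cells split over Mfge8. Cluster 2 held 163 CPM, cluster 14 held 136 CPM, and cluster 3 held 26.5 CPM, 6.16-fold less than cluster 2. Cluster 9 differed between the libraries, at 64.7 CPM in control and 261 CPM in tumor (4.04-fold). Mfge8 transcripts were also unevenly spread over cells: the variance over the mean of thinned UMIs was 3.30 in control and 5.04 in tumor, against 1.10 and 1.16 for Fcgr1, which was detected in a similar share of cells. Cells with at least 5 thinned Mfge8 UMIs made up 0.626% of control cells (35) and 1.34% of tumor cells (93). Of the 35, 24 lay in cluster 5. Of the 93, 43 lay in cluster 2, 15 in cluster 5 and 13 in cluster 9. Most of these cells lay in cluster 5 in control, and the largest number in cluster 2 in tumor. As a share of a cluster's cells, tumor cluster 2 (2.92%) was near clusters 9 (3.74%), 5 (3.10%) and 11 (3.03%). The highest single cell held 19 thinned UMIs in control and 36 in tumor.

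Gas6 showed little that could be placed. Its 2 UMIs among 58293 control UMIs and 3 among 325924 tumor UMIs of cluster 18, a group of 29 cells led by the mesenchymal genes Dcn and Col3a1, gave 34.3 and 9.20 CPM, above both whole libraries but from 5 molecules. In the tumor library, cluster 2 stood at 1.33 CPM and cluster 3 at 0.604 CPM. No order of states is read from these counts.

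**Figure D2:**
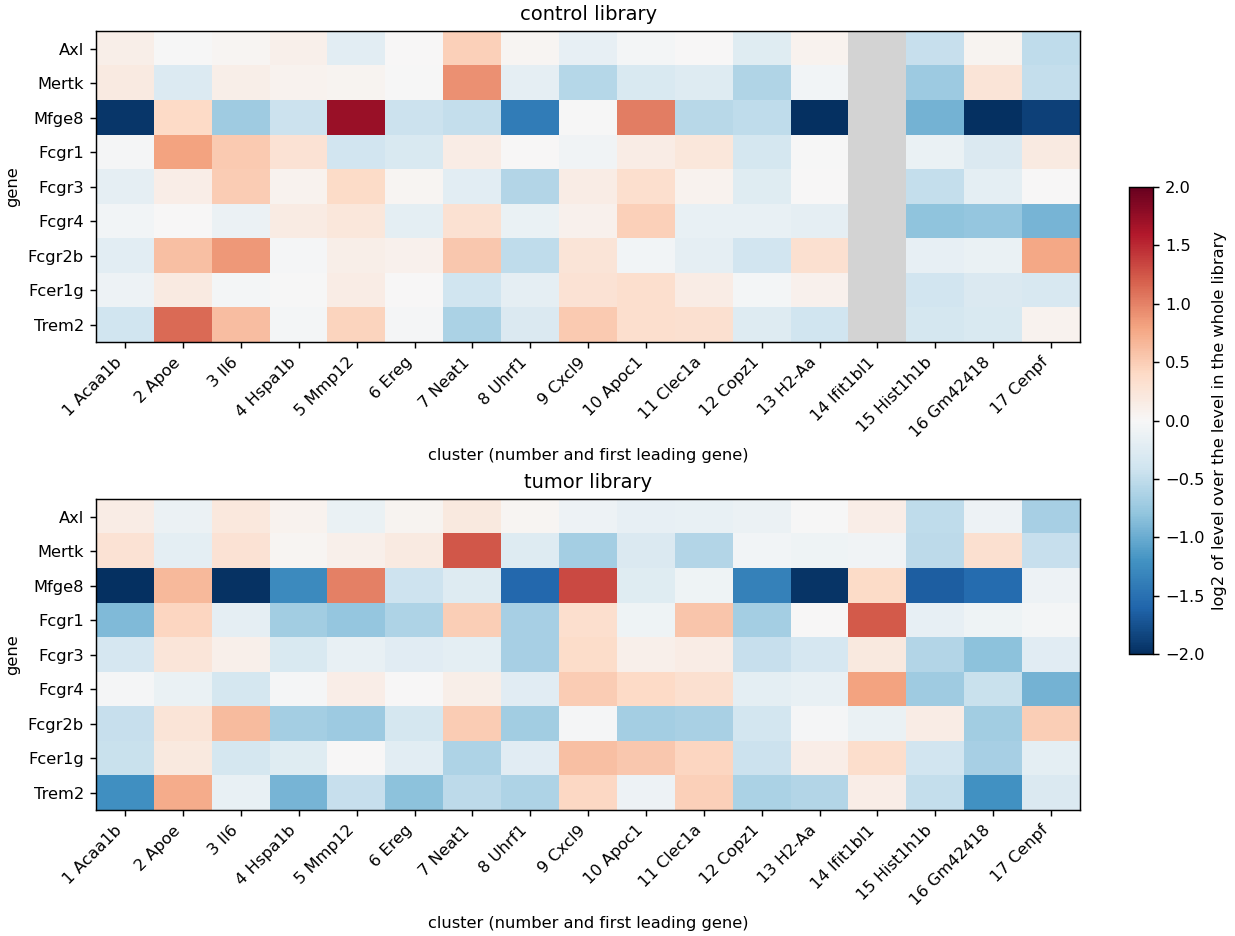
Level of 9 of the genes in each cluster of at least 50 cells, as log2 of the level over that gene's level in the whole library, for control (top) and tumor (bottom); grey marks cluster 14, which has 17 control cells. Mfge8 has the widest range in both libraries, and Fcgr1 and Fcgr4 are highest in cluster 14 in tumor.

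Among the activating Fc receptors, Fcgr1, the high-affinity receptor, and Fcgr4 were highest in the interferon cluster. In tumor, cluster 14 held 99.6 CPM of Fcgr1 and 191 CPM of Fcgr4, and the next clusters held 62.7 CPM (cluster 11) and 157 CPM (cluster 9). The 17 control cells of cluster 14 held 97.1 CPM of Fcgr1 and 207 CPM of Fcgr4, near the tumor values. Against cluster 3, cluster 14 was 2.64-fold higher in Fcgr1 and 2.23-fold higher in Fcgr4. Fcgr3, the low-affinity receptor, was about the same there as in cluster 2, at 298 and 307 CPM, and its highest clusters were cluster 3 in control (334 CPM) and cluster 9 in tumor (336 CPM). Fcgr4 was lowest in cluster 17, at 41.7 CPM in control and 56.9 CPM in tumor.

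The upstream sequences of Fcgr1, Fcgr4 and Fcgr2b are shown because, in tumor, the interferon cluster was highest for Fcgr1 and Fcgr4 but not Fcgr2b. Fcgr2b stood at 145 CPM there, beside 247 CPM in cluster 3, its highest. It was at 159 CPM over the tumor library and at 119 CPM outside clusters 2, 3 and 14. Each sequence is the 250 bases before the RefSeq transcription start on GRCm38.p6, 5′ to 3′ on the strand of the gene, and all 10 genes matched a RefSeq promoter entry. The Fcgr2b window lies inside the gene as GENCODE places it, with its 5′ end at position 170976547. Capitals mark 3 motifs found on either strand: the interferon-gamma-activated site TTCNNNGAA, the core of the interferon-stimulated response element (GAAA, any 2 bases, GAAA), and the PU.1 core GAGGAAG. Fcgr1 is at chr3:96293970-96294219 on the minus strand, Fcgr4 at chr1:171018676-171018925 on the plus strand and Fcgr2b at chr1:170976072-170976321 on the minus strand.
Fcgr1: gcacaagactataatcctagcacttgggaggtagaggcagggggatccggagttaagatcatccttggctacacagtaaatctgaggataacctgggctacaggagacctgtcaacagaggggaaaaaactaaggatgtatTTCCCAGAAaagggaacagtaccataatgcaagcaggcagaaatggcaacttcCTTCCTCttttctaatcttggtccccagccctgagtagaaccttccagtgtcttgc
Fcgr4: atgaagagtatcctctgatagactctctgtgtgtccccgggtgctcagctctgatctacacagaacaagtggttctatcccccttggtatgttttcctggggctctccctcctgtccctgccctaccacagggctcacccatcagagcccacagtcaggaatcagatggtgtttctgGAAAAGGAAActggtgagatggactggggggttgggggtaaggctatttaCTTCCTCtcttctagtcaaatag
Fcgr2b: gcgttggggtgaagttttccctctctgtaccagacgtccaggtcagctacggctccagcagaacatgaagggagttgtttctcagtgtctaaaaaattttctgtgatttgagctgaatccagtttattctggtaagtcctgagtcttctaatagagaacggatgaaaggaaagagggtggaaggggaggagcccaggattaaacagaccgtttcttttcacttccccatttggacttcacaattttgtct

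In these windows, the TTCNNNGAA letters of Fcgr1 began 109 bases before the start and the response-element letters of Fcgr4 began 73 bases before it. Over the 32851 promoter windows of 300 bases searched, 8.30% held TTCNNNGAA, 3.44% held the response-element core and 13.6% held GAGGAAG. The PU.1 core was found in Axl, Fcgr1, Fcgr3, Fcgr4 and Trem2. The other motifs searched were TTGCNNAA (10.8% of windows), TGANTCA (7.81%) and CACGTGAC (2.25%); TTGCNNAA was found in Fcgr3 and Trem2, TGANTCA in Trem2, and CACGTGAC in none of the 10. These matches describe the letters of the windows. They were not tested for binding or for a part in expression. The windows of Fcgr3, like that of Fcgr2b, lie inside the GENCODE gene, with its 5′ end at position 171064935. Other starts of Fcgr2b and Fcgr3 were not searched.

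The genes lie in the genome (GRCm38, GENCODE vM21) as follows. Fcgr2b (chr1:170958617-170976547, minus strand), Fcgr4 (chr1:171018920-171029761, plus), Fcgr3 (chr1:171051174-171064935, minus) and Fcer1g (chr1:171229572-171234365, minus) are neighbours on chromosome 1. Fcgr1 is on chromosome 3 (96282909 to 96293969, minus), Mertk on chromosome 2 (128698956 to 128802894, plus), Trem2 on chromosome 17 (48346401 to 48354147, plus), Gas6 on chromosome 8 (13465374 to 13494490, minus), and Axl (25757273 to 25788705, minus) and Mfge8 (79133768 to 79149060, minus) on chromosome 7. Fcgr2b and Fcgr3 are similar copies, and of the 91-base windows in the last 1000 bases of their coding transcripts, 71 of 2479 of Fcgr2b and 47 of 1387 of Fcgr3 also occur in transcripts of other genes (2.86% and 3.39%); those of Fcgr3 occur in Fcgr2b. No other of the 10 shared such a window. How reads from the shared windows were assigned is uncertain, and the levels of Fcgr2b and Fcgr3 carry that uncertainty.

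Fcgr2b, the inhibitory receptor, was highest in cluster 3 in both libraries, at 194 CPM in control and 247 CPM in tumor, and lowest in cluster 8 (S-phase genes) in control at 75.0 CPM and in cluster 5 in tumor at 96.1 CPM. In control, these were also the highest and the lowest cluster of Fcgr3, at 334 and 156 CPM. Because these are counts of molecules, the UMIs of Fcgr2b were set against the summed UMIs of the 3 activating receptors. The ratio was 0.310 (0.302 to 0.318) in control and 0.385 (0.377 to 0.394) in tumor. In tumor it was 0.613 (0.585 to 0.643) in cluster 3, 0.412 in cluster 2 and 0.245 (0.220 to 0.273) in cluster 14. Cluster 3 of control, with 89 cells, stood at 0.433 (0.361 to 0.519), below that of tumor. Cluster 17, led by mitotic genes, had the highest ratio in both libraries, at 0.585 in control and 0.701 in tumor, with wide intervals (0.492 to 0.695 and 0.570 to 0.861). Cluster 15 stood at 0.394 in control and 0.631 in tumor. The lowest ratios in tumor were 0.208 and 0.215 in clusters 11 and 10. Without clusters 2, 3 and 14 the ratio was 0.307 in control and 0.314 in tumor.

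**Figure D3:**
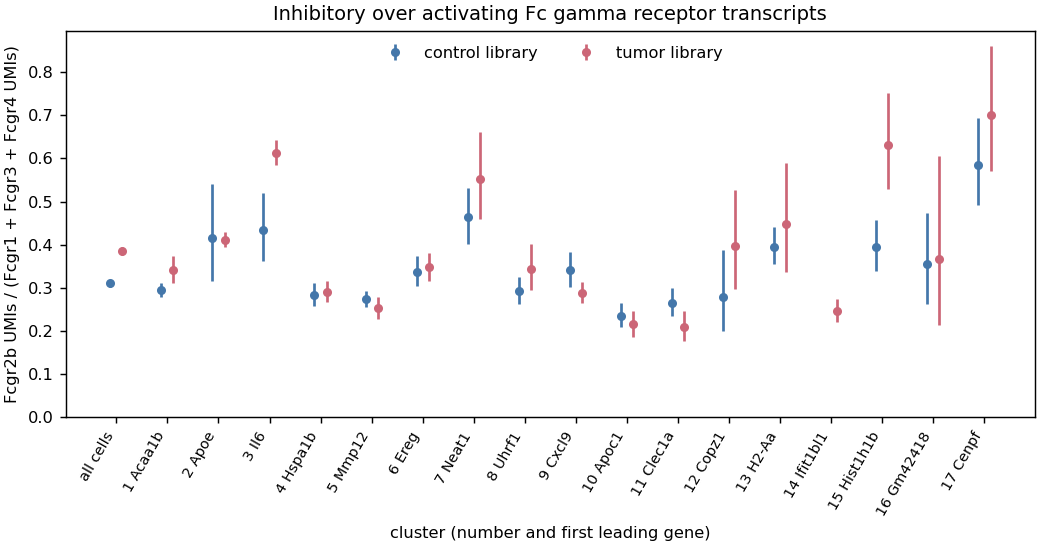
Fcgr2b UMIs divided by the summed UMIs of Fcgr1, Fcgr3 and Fcgr4 in all cells and in each cluster of at least 50 cells, with exact binomial intervals, for the control (blue) and tumor (red) library. The tumor values of clusters 3 (0.613) and 14 (0.245) lie on opposite sides of the whole library (0.385).

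Fcer1g, the signaling chain, was seen in nearly all cells and followed the chain Tyrobp. Over the 33 combinations of cluster and library it had a Pearson r of 0.94 with Tyrobp, the highest of 5883 genes of at least 20 CPM. Tyrobp itself was at 2074 CPM in control and 1751 CPM in tumor (log2 ratio -0.24, -0.26 to -0.23), close to the change of Fcer1g. Fcer1g was highest in clusters 10 and 9, at 2667 and 2583 CPM in control and 2645 and 2763 CPM in tumor. It was lowest in the low-depth cluster 7 in control (1593 CPM) and in cluster 16, led by Gm42418 and mitochondrial genes, in tumor (1147 CPM).

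Trem2, the lipid receptor, was highest in cluster 2 in both libraries, at 346 CPM in the 53 control cells and 433 CPM in tumor. Cluster 2 was led by Apoe, whose product is known to bind Trem2. In tumor, cluster 11 (361 CPM) and cluster 9 (345 CPM) came next and did not differ beyond their intervals. Cluster 1 was lowest in tumor with 111 CPM, beside 112 CPM in cluster 16, and cluster 7 was lowest in control with 102 CPM. Cluster 2 exceeded cluster 3 by 1.86-fold and cluster 14 by 1.53-fold in tumor.

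**Figure D4:**
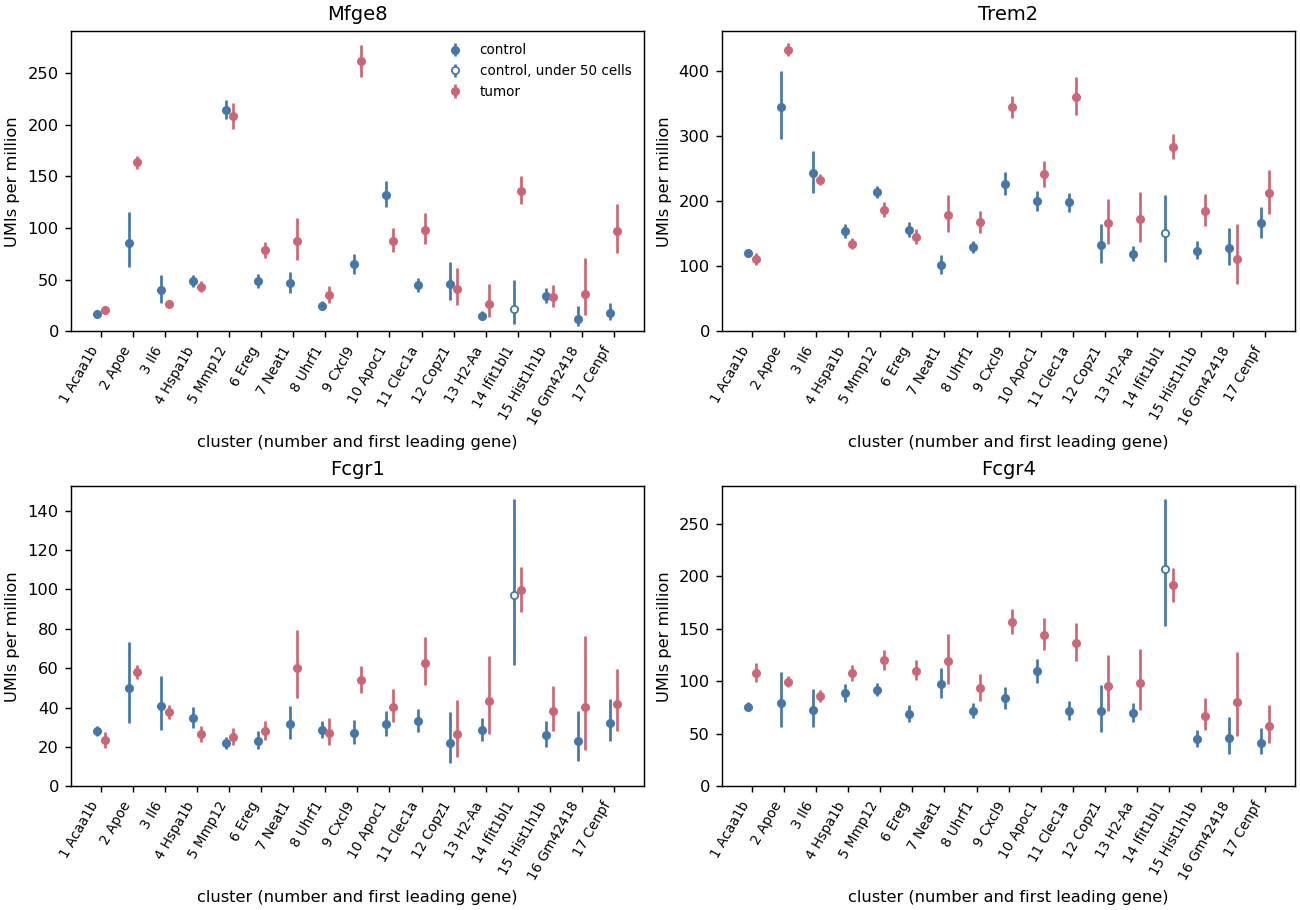
Level of Mfge8, Trem2, Fcgr1 and Fcgr4 in CPM in each cluster, with exact Poisson intervals, in the control (blue) and tumor (red) library; the open point is cluster 14 of control, with 17 cells. Mfge8 and Trem2 are high in cluster 2 and Fcgr1 and Fcgr4 in cluster 14.

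In the tumor library, the 3200 cells of clusters 2, 3 and 14 were compared with its 4466 other cells. Trem2 was 1.84-fold higher in them (344 against 187 CPM), Fcgr2b 1.74-fold (208 against 119 CPM) and Fcgr1 1.64-fold (54.4 against 33.2 CPM). In clusters 2, 3 and 14 in turn, Fcgr1 stood at 57.9, 37.7 and 99.6 CPM, Trem2 at 433, 233 and 283 CPM and Fcgr2b at 191, 247 and 145 CPM. The 3 clusters were thus not alike, and cluster 3 for Fcgr1 and Trem2, and cluster 14 for Fcgr2b, lay nearest to the other cells. These 3 genes were past 1.5-fold over the clusters together, none of the 10 was 1.5-fold lower, 6 lay between and Gas6 had under 50 UMIs. Mfge8 was among the 6, with a log2 ratio of 0.14, but it stood at 1.09 when the cells were clustered without library correction, and Fcgr1 fell under 1.5-fold, at 0.44, when the clustering was run without genes that differed 2-fold between control and tumor. The count of genes past 1.5-fold was 2 to 4 over the clusterings. Among 9989 genes that had no part in the clustering, 4.62% were at least 1.5-fold higher and 10.2% at least 1.5-fold lower. Fcgr3 was 1.28-fold higher. The clusters also differed in markers of other cell types. Over both libraries, the summed interstitial macrophage list stood 1.79 above its level in all cells on the log2 scale in cluster 2, 0.69 in cluster 3 and 0.03 in cluster 14, and the monocyte list 0.78, 1.09 and 0.39. Fn1, the largest part of the monocyte sum, stood at 1283, 1540 and 977 CPM in the tumor cells of these clusters. The T cell list stood at 1.72, -1.29 and 0.18 (39.3 CPM in cluster 2), and the neutrophil list at 0.84, -0.14 and 0.38. The AM list stood at -0.50, -0.22 and -0.14. The part of these differences in the levels of Trem2, Fcgr2b and Fcgr1 was not tested. Fcgr4 was slightly lower in these clusters, by a log2 ratio of -0.15 (-0.22 to -0.08), which turned to 0.07 without library correction. It stood at 191 CPM in cluster 14 but at 99.7 and 85.8 CPM in clusters 2 and 3.

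The difference between libraries was also looked at within the same cluster. Trem2 had a log2 ratio of 0.71 over all cells, but of 0.18 when the tumor clusters were given the control library's shares, and of 0.27 without clusters 2, 3 and 14. Within clusters its ratio ran from -0.20 in cluster 5 to 0.86 in cluster 11. Fcgr1 and Fcgr2b moved likewise, from 0.59 to 0.22 and from 0.58 to 0.21. Without the 3 clusters, Trem2, Fcgr1 and Gas6 fell under 1.5-fold, and of the 10 genes Mfge8 alone (1.52-fold) was past it. The share of all genes past 1.5-fold at this setting is not given here, so this count has no background. At the control library's shares Mfge8 was below it too, at 65.2 and 81.6 CPM (log2 ratio 0.32), whereas control at the tumor library's shares stood at 67.4 CPM, beside 104 CPM in tumor. The same reverse weighting put control Trem2 at 222 CPM, Fcgr2b at 135 CPM and Fcgr1 at 38.4 CPM, beside 258, 159 and 42.8 CPM in tumor. This weighting leans on the 53, 89 and 17 control cells of clusters 2, 3 and 14, which held 25, 37 and 23 UMIs of Fcgr1. Its values carry no interval. At the control library's shares Gas6 had a log2 ratio of -0.00706, but the 5 other clusterings gave 0.16 to 1.01, so no direction is read from it. Fcgr3 turned from 0.15 to -0.07 and, without the 3 clusters, to -0.01.

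Fcgr4 did not follow this. Its log2 ratio was 0.49 at the control library's shares and 0.55 without the 3 clusters, against 0.47 over all cells. It was above 0 in all 16 clusters with at least 50 cells in each library, from 0.24 in cluster 3 to 0.93 in cluster 11, and its interval lay above 0 in 10 of them. In cluster 1 it went from 75.9 to 108 CPM, in cluster 5 from 92.1 to 120 CPM and in cluster 9 from 83.6 to 157 CPM. Fcer1g was lower in tumor with its interval below 0 in 12 of 16 clusters and above 0 in 2 (clusters 9 and 11). At the control library's shares its log2 ratio was -0.30. Mertk was higher by 0.28 at the control library's shares, with its interval above 0 in 10 clusters and below 0 in none, and Axl by 0.13, with 8 and 0. Mfge8 ran from -0.59 in cluster 10 to 2.44 in cluster 17.

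**Figure D5:**
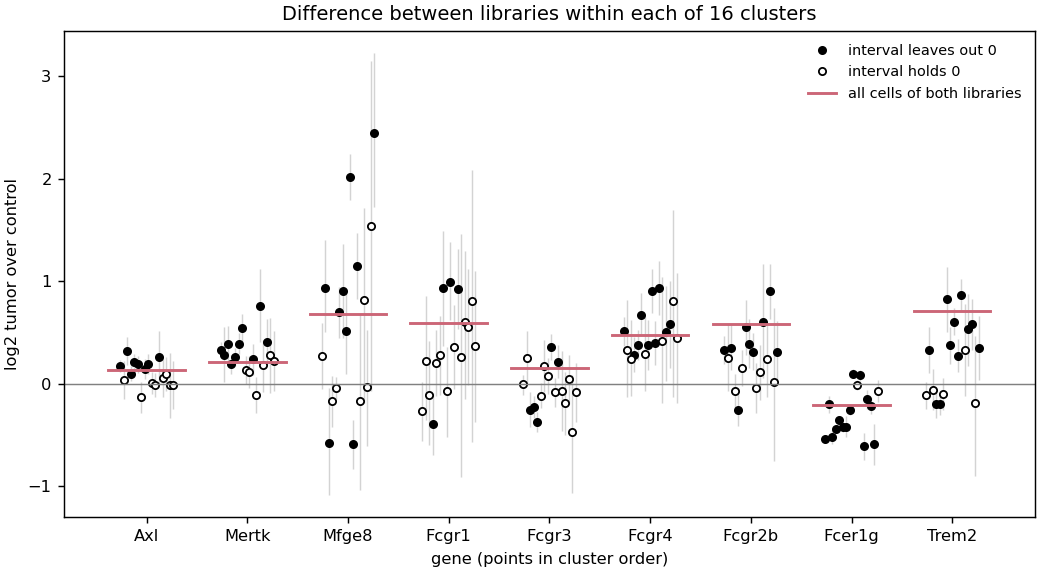
Log2 ratio of tumor over control within each of the 16 clusters with at least 50 cells in both libraries, for 9 genes, with exact binomial intervals in grey. Filled points have intervals that leave out 0, and the red line is the ratio over all cells. Fcgr4 lies above 0 in all 16 clusters, Fcer1g mostly below 0, and Trem2 below its red line in most.

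Detection of pairs of the 10 genes in the same cell was counted in cells thinned to 3800 UMIs. Of the 45 pairs, 40 in control and 42 in tumor had an expected count of at least 5. Pairs with Fcer1g have little room above 1 in the ratio of observed to expected, since it was in nearly all cells. Pairs with Axl, detected in 83.4% of control and 85.9% of tumor cells, have more. Outside the pairs with Gas6, Mfge8 with Trem2 was the highest in both: 339 control cells held both against 258 expected, and 652 tumor cells against 555. Within clusters the ratio was 1.19 and 1.11. Mfge8 with Fcgr4 was at 1.19 and, within clusters, 1.16 in control, but at 0.999 and 0.946 in tumor. Fcgr1 with Trem2 was at 1.15 in both libraries and, within clusters, at 1.12 in control and 1.07 in tumor. Fcer1g and Trem2 had the largest r of thinned counts, 0.13 in control and 0.19 in tumor, which is weak at these counts.

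The genes whose levels were most like each of the 10 over the 33 combinations of cluster and library gave the following description. For Mfge8 they were Gpnmb (r 0.89), Cd63 and Ctsb. For Fcgr1 they were the interferon-stimulated genes Rsad2 (0.82) and Ly6e, with Ctss, and for Fcgr4 the lysosomal Ctsd (0.85), Pld3 and Ctsb. Trem2 was most like B2m (0.89), Ifitm2 and Wfdc17, and Fcgr2b most like Emb (0.82), Arhgap15 and Emilin2. Mertk was closest to Iqgap1 (0.94), Cd44 and Tmbim1, Axl to Mpeg1 (0.86), Cyth4 and Noc2l, and Fcgr3 to Ctsh (0.75), Trem2 and Lyz2. Fcer1g was followed, after Tyrobp, by Cyba and Capg. For Gas6 the best r was 0.50 (Dolpp1).

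Other genes of these pathways were counted from fixed lists of 92 genes, also chosen with earlier results of these data known. Of these genes, 77 had at least 50 UMIs. Of the 77, 17 were at least 1.5-fold higher in tumor and 4 lower, beside 8.44% higher and 11.0% lower over all 12267 genes, which is also the background of the counts that follow. The bridging proteins and opsonins had 6 of 10 higher and none lower. C1qb, a subunit of the complement opsonin C1q, went from 0.401 to 20.6 CPM, and C1qa and C1qc from 0.139 to 9.53 and from 0.0463 to 8.55 CPM. In tumor, 69.6% of C1qb UMIs were in cluster 2 and 20.6% in cluster 9. The C1q genes are also among the interstitial macrophage markers whose summed level is given above. Fn1, encoding fibronectin, went from 359 to 918 CPM and is likewise on the monocyte list.

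Of the 17 tested other receptors for engulfment, 7 were higher and 1 was lower. Of the 7, Stab1 was near absent, at 0.339 and 0.552 CPM, and its interval of the log2 ratio (-0.09 to 1.53) includes 0. The scavenger receptor Msr1 went from 28.6 to 68.9 CPM, the lipopolysaccharide co-receptor Cd14 from 204 to 374 CPM, the phosphatidylserine-binding receptor Cd300a from 43.3 to 75.8 CPM and the oxidised lipoprotein receptor Olr1 from 273 to 432 CPM. The scavenger receptor Marco was lower, 585 CPM in control against 207 CPM in tumor, and stood at 23.1 and 17.3 CPM in clusters 2 and 3 of tumor and at 119 and 104 CPM in the few control cells of these clusters. Pros1, another ligand of Mertk, was nearly the same in both libraries at 140 and 142 CPM, far above Gas6. None of the 20 tested genes of engulfment and digestion was past 1.5-fold in either direction, and of the 15 signaling genes 1 was higher. Of the 5 tested genes of the TREM family besides Trem2, 2 were higher and 2 lower. Of the 2 higher, Treml1 stood at 0.293 and 0.465 CPM, and its interval (-0.20 to 1.57) includes 0. Treml4, which was lower, went from 34.6 to 20.3 CPM. Of the 3 other Fc receptor genes tested, 1 was lower, and of the 7 inhibitory "do not eat me" genes 1 was higher. Both were near absent: Fcrla at 0.586 and 0.320 CPM (interval -1.70 to -0.08) and Siglecg at 0.540 and 1.12 CPM (0.46 to 1.67).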

How the data were processed

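Single-cell libraries of sorted AMs (10x Genomics Chromium 3′ v3.1) were analysed, 1 from control and 1 from tumor-bearing mice. The deposited files hold raw UMI counts per gene and barcode; per the submitters' processing notes, the authors used bcl2fastq 2.20, Cell Ranger 4.0.0 and mm10, while the study's methods name Cell Ranger 5.0.0 with default settings. The methods also mention hashtag reads, which were not used here. Symbols matched 32158 of 32285 Ensembl identifiers.

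Counts were summed per library or cluster and scaled to CPM. Ratios carry exact conditional binomial intervals, levels exact Poisson intervals and shares exact Clopper-Pearson intervals (95%, scipy 1.17.1); for a share of 0 the limit is 3 counts, and for a level of 0 the Poisson bound. Cells were clustered after library correction by mutual nearest neighbours (20 neighbours, 50 components; Leiden, resolution 1, leidenalg 0.10.2). Cells are not replicates, so no test was run and a difference of 1.5-fold is a size, not a significance. Doublets were kept: the caller in scanpy 1.11.5 marked 0 in each library, so an alternative removed the highest-scoring 274 and 410 barcodes. The code was tested on simulated data. The 10 genes, the lists and the clusters' use were chosen with earlier results of these data known. Named pathway genes had at least 20 CPM in 1 library and a 1.5-fold difference. C1qa, C1qc, Pros1, Stab1, Treml1, Tyrobp, Fcrla and Siglecg were named after their values were seen. The Fc receptor ratio and the count of Mfge8-rich cells were likewise added after their values were seen. Alternatives changed the filter, scaling, thinning, doublets and clustering.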

Additional observations from a re-analysis of the deposited data

Results flagged for a closer look

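In the barcodes left out by the quality filter (2300 control and 1509 tumor), which no comparison above uses, Mertk was higher in tumor by a log2 ratio of 0.62 (443 against 682 CPM) and Fcgr2b by 1.08 (54.4 against 115 CPM). For Fcgr2b this exceeded the 0.58 of the kept cells. In the same barcodes Axl was lower in tumor, at -0.20 (-0.34 to -0.05), against 0.14 in the kept cells, and Fcer1g was at -0.63.

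Mfge8 differed between the libraries in opposite directions in different clusters: it was higher in tumor by 2.44 in cluster 17 (17.9 against 97.2 CPM, 93 and 60 cells) and lower by a log2 ratio of -0.59 in cluster 10 (132 against 87.8 CPM). The difference between these clusters was not tested, since each rests on 1 library per condition.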

How the results depend on the processing

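Of 362 alternatives, 14 changed the sign of a value and 90 moved it beyond its counting interval or, for counts and ranges over clusters, over 1.5 times. Against 4 genes at least 1.5-fold higher in tumor, the other settings gave 3 to 5 (with per-cell CPM Gas6 at 0.50 and Fcgr1 at 0.48 fell under 1.5-fold and Fcgr2b at 0.60 passed it, and without mt- and ribosomal genes Fcgr1 at 0.55 fell under it), except that leaving out clusters 2, 3 and 14 gave 1, which removes their cells by construction; none was 1.5-fold lower under any setting. The count of 1 has no share over all genes at that setting beside it. Without those clusters Fcgr3 was at -0.0118. Without thinning, the difference in the share of cells was -0.766 points for Axl, 0.208 for Gas6 and -0.994 for Fcgr3. The share of Gas6 also turned with at least 2 UMIs (0.0144) and another seed (0.0875). At control cluster shares Gas6, at -0.00706 in the reported clustering, was 0.29 at resolution 0.5, 0.16 at resolution 1.5, 1.01 without library correction, 0.39 with genes 2-fold different left out of the clustering and 0.28 with doublets removed. For clusters of mostly tumor cells over others, Mertk was -0.0843 and Fcgr4 0.0691 without library correction, and Fcer1g was -0.0429 with genes 2-fold different left out. There, 2 to 4 genes were past 1.5-fold higher, against 3, and Mfge8 ranged from 0.14 to 1.09. Causes were not tested. At control shares, Trem2 stayed between 0.14 and 0.28 and Fcgr4 between 0.35 and 0.52. Leaving out a replicate was not possible with 1 library per condition. No paired analysis was possible because each condition has 1 library. Gas6 is limited by its few UMIs and cluster 14 of control by its 17 cells.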
